A study of Mus musculus with 4 samples.

Results

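The genes of sarcoplasmic reticulum calcium cycling described here, 10 of 27998 in the gene table, were chosen by symbol: Sln, Pln, Atp2a2, S100a1, Casq1, Casq2, Hrc, Ryr2, Jph2 and Slc8a1. All 10 were found in each of the 4 matrices and all 10 passed the filter on low counts. The hearts came from wild-type CD1 mice at embryonic day 16.5 and were untreated. They had been microdissected into the sinoatrial node (SAN) region (Zone I), the region of the atrioventricular node and His bundle (AVN/His, Zone II), and the bundle branch and Purkinje fiber (BB/PF) region (Zone III), dissected separately from the left and right ventricles. Each region gave 1 library of single cells, and the labels do not say how many hearts or litters it held. A whole dissected region was sequenced with no sort, so conduction cells were a small part of each library.

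In each heartbeat calcium enters the myocyte through the membrane, opens the ryanodine receptor and so releases more calcium from the sarcoplasmic reticulum. The calcium pump SERCA2 then returns it to the store, and the small membrane proteins sarcolipin (Sln) and phospholamban (Pln) bind the pump and restrain it. Sarcolipin is known as the regulator of atrial muscle and phospholamban as that of ventricular muscle in the mouse. In pacemaker cells, calcium release and sodium-calcium exchange also take part in setting the beat.

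Myocytes were clustered with the 10 genes and the other calcium handling genes left out, so none of their values shaped a cluster. Marker genes were not left out, so the marker levels below are not independent of the classes. Clusters were named from marker genes. SAN-like cells (173) carried all 9 SAN markers, with Shox2, Smoc2 and Vsnl1 among the leading genes, and were set beside 2406 atrial-like cells of the same library. In the AVN/His region, 40 cells with more Myl7 than Myl2 (the atrial and the ventricular myosin light chain) and 120 cells with more Myl2 each carried 6 of 7 AVN/His markers. They are called the Myl7 type and the Myl2 type, and stand beside 72 atrial-like and 2393 ventricular-like cells. The leading genes of the Myl7 type held the AVN/His markers Id2 and Bmp2, but also Shox2 and Vsnl1 from the SAN list. Those of the Myl2 type held Id2 as the only AVN/His marker, and also Casq1. The AVN/His marker that missed the threshold was Ntm in the Myl7 type and Hcn4 in the Myl2 type. PF-like cells carried 7 of 8 Purkinje markers, with Cacna2d2 leading, and Cntn2 was the marker that missed the threshold. They numbered 39 in the left and 20 in the right ventricle, against 3647 and 2577 ventricular-like cells.

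The 4 libraries kept 4356 to 5934 cells with at least 500 genes, with medians of 8479.5 to 9272 unique molecular identifiers (UMIs) per cell. Between 1.90% and 2.55% of the kept barcodes of a library were also found in another. In all, 11487 myocytes had a named class, and a class of a library held 177975 to 32031853 UMIs. Levels are UMIs of a gene per 10000 UMIs of the class, with exact 95% Poisson intervals. Such intervals cover counting error only, and with 1 library a region they say nothing of the spread between hearts. The libraries are 3' tag libraries, 1 tag a molecule, so levels of different genes can be compared without a length term. Endothelial markers summed to at most 0.887 UMIs per 10000 in a named class and fibroblast markers to at most 2.37, and 1 macrophage marker is given with the PF-like values below. The marker lists of the conduction classes share genes. AVN/His markers summed to 17.5 in the Myl7 type and 8.61 in the Myl2 type, but also to 14.8 in SAN-like cells and to 14.4 and 10.7 in PF-like cells of the left and right ventricles. Outside the conduction classes they summed to 6.43 in atrial-like and 0.807 in ventricular-like cells of the AVN/His region. Atrial-like cells of the SAN region had 2.23, and macrophage-like cells 5.28 to 12.5, so the sum is not particular to conduction cells. SAN markers summed to 25.1 in SAN-like cells and 9.71 in the Myl7 type. Atrial markers summed to 57.4 in the Myl2 type, against 28.0 in ventricular-like cells of that library.

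The coding sequences of the pump regulators show how small they are: 31 codons and a stop for Sln and 52 codons and a stop for Pln, each within a single exon. They are printed from GENCODE vM21 transcripts (GRCm38), with the start and stop codons in capitals. The coding sequence of Sln lies at chr9:53853473-53853568 and that of Pln at chr10:53343864-53344022, both on the plus strand. Cep85l overlaps Pln on the other strand.
Sln: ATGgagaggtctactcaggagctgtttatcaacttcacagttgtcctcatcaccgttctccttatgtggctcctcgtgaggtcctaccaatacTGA
Pln: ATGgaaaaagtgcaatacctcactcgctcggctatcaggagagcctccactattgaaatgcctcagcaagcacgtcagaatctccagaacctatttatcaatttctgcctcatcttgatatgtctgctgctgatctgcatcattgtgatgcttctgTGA

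Sln divided the myocytes into 2 sets. It stood at 52.2 UMIs per 10000 (51.1 to 53.3) in SAN-like cells, against 62.2 (61.9 to 62.5) in the atrial-like cells of their library. The Myl7 type of the AVN/His region had 50.8 (48.7 to 52.9), against 47.4 (46.0 to 48.9) in atrial-like cells there. All Myl2-expressing classes were near 0. The Myl2 type had 0.0426 (6 UMIs in 120 cells), against 0.179 in the ventricular-like cells of the region. PF-like cells of the left ventricle had 1 Sln UMI, a level of 0.0281 (0.000713 to 0.157), against 0.0109 in ventricular-like cells. PF-like cells of the right ventricle had 0 UMIs, with an interval of up to 0.207 (3 UMIs would be a level of 0.169), against 0.00818 in ventricular-like cells. No Sln difference between PF-like and ventricular-like cells was detectable at this depth.

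Sln UMIs were also counted in cells that are not myocytes. The part of free RNA and of doublets in them was not tested. In the SAN region, macrophage-like, endothelial-like and fibroblast-like cells held 0.908 to 1.34 Sln UMIs per 10000, and 41.9% to 52.9% of them had at least 1 Sln UMI at median depths of 5542.5 to 8608 UMIs. The ventricular level in the AVN/His library leaned on a few cells. A cluster of 27 cells that held both Myl7 (116 per 10000) and Myl2 (60.4) was classed as ventricular-like, and the class held 179 of its 465 Sln UMIs without it. The ventricular-like level without that cluster was 0.0697. In the same library macrophage-like, endothelial-like and fibroblast-like cells held 0.0427, 0.0537 and 0.0897 Sln UMIs per 10000. The Myl2 type, at 0.0426, and the ventricular-like cells without that cluster thus had about the Sln level of non-myocytes.

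Pln ran the other way, and SAN-like cells stood apart from both chambers. They held 11.5 Pln UMIs per 10000 (10.96 to 12.03), against 3.83 (3.75 to 3.91) in the atrial-like cells of the SAN region. The Myl7 type held 4.80 (4.19 to 5.48), against 3.65 (3.26 to 4.06) in its atrial-like cells. The Myl2 type had 22.9 (22.2 to 23.7), against 34.3 (34.1 to 34.5) in ventricular-like cells. In the left ventricle PF-like cells had 24.0 (22.4 to 25.6), against 35.0 in ventricular-like cells, and in the right ventricle 32.8 (30.2 to 35.6), against 34.9. Every conduction class thus had more Pln than the atrial-like cells and less than the ventricular-like cells. The interval of the right PF-like cells overlapped that of its ventricular-like cells. Myl2 was among the leading genes of SAN-like cells, at 2.72 UMIs per 10000, against 0.0522 to 1.68 in the atrial-like clusters, while the 5 ventricular markers summed to 6.55 in SAN-like and 6.65 in atrial-like cells. None of the 173 SAN-like cells had as many Myl2 as Myl7 UMIs, and the part of Myl2-holding cells in the Pln level was not tested further. Non-myocytes held 0.0820 to 0.783.

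**Figure D1:**
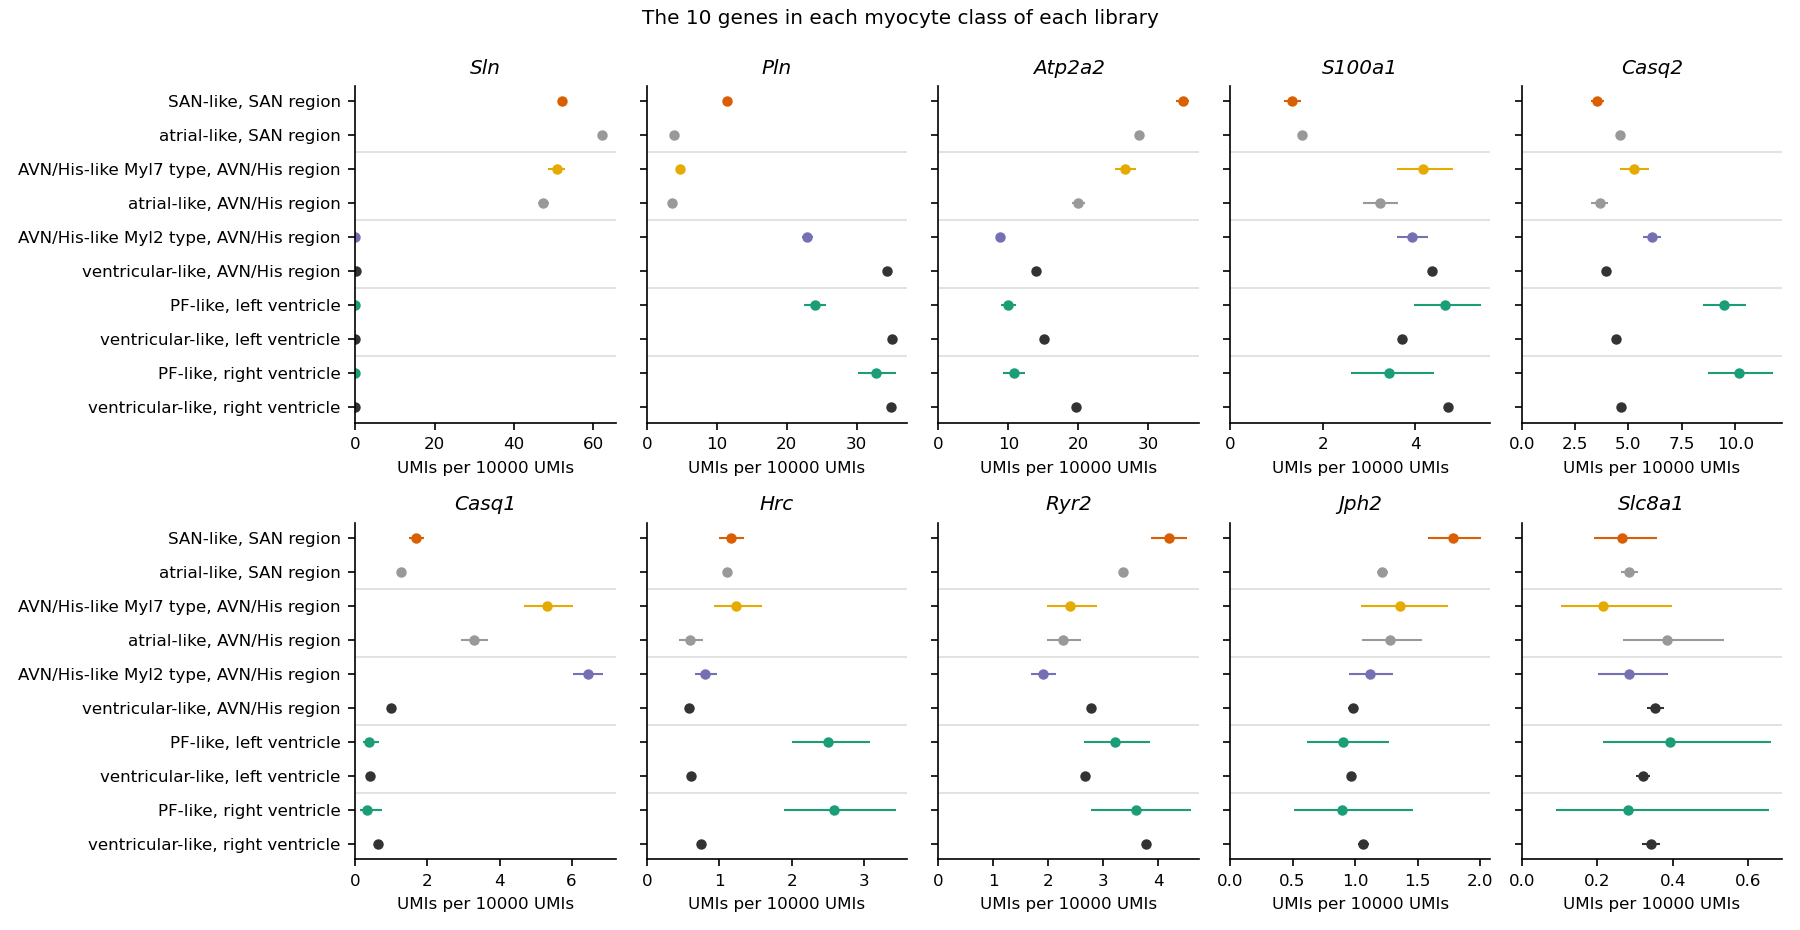
Level of each of the 10 genes (UMIs per 10000 UMIs, linear axes from 0) in the 10 myocyte classes, each conduction class above the working myocytes of its own library. Points are the levels and bars their exact 95% Poisson intervals. Pln is 11.5 in SAN-like cells against 3.83 in atrial-like cells, Casq1 is highest in the AVN/His region and Casq2 and Hrc are highest in PF-like cells.

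The balance of the pair was expressed as the Sln share, Sln UMIs as a percentage of Sln and Pln UMIs together, with Wilson 95% intervals. It was 82.0% (81.2 to 82.7) in SAN-like cells, against 94.2% (94.1 to 94.3) in atrial-like cells of the same library. The Myl7 type had 91.4% (90.2 to 92.4), against 92.9% (92.1 to 93.6) in its atrial-like cells, with overlapping intervals. The Myl2 type had 0.186% (0.0851 to 0.404), against 0.520% in ventricular-like cells, or 0.203% without the mixed cluster. In the left ventricle the share was 0.117% in PF-like cells, against 0.0312% in ventricular-like cells. In the right ventricle it was 0 of 584 UMIs in PF-like cells, with an interval of up to 0.653% (3 UMIs would be 0.514%), against 0.0234% in ventricular-like cells. Averaged over libraries, the share was 86.7% ± 6.65 (SD, n = 2) in nodal-like cells, 0.0586% ± 0.0829 (SD, n = 2) in PF-like cells, 93.5% ± 0.95 (SD, n = 2) in atrial-like cells and 0.192% ± 0.285 (SD, n = 3) in ventricular-like cells. Nodal-like here means SAN-like cells and the Myl7 type. The nodal mean is 61.3% when both AVN/His-like types enter it, since the Myl2 type has almost no Sln.

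Cell by cell, the nodal classes mostly had more Sln than Pln but a wider mix. Sln exceeded Pln in 163 of 173 SAN-like cells, against 2384 of 2406 atrial-like cells. Their median share was 87.0% (quartiles 72.5 and 93.8), against 95.1% (90.8 and 98.3). Between 10% and 90% lay 53.8% of SAN-like cells, against 20.8% of atrial-like cells. In the AVN/His region Sln exceeded Pln in 38 of 40 cells of the Myl7 type, against 71 of 72 atrial-like cells, and 45.0% of the Myl7 type, against 19.4% of atrial-like cells, lay between 10% and 90%. The median depths were 8450 UMIs in SAN-like and 9139.5 in atrial-like cells of the SAN region, and 11112 and 12511 in the AVN/His region. No cell of the Myl2 type (120 cells) or of the PF-like classes (39 and 20) had more Sln than Pln. In SAN-like cells, 4.05% had a share under 10%.

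**Figure D2:**
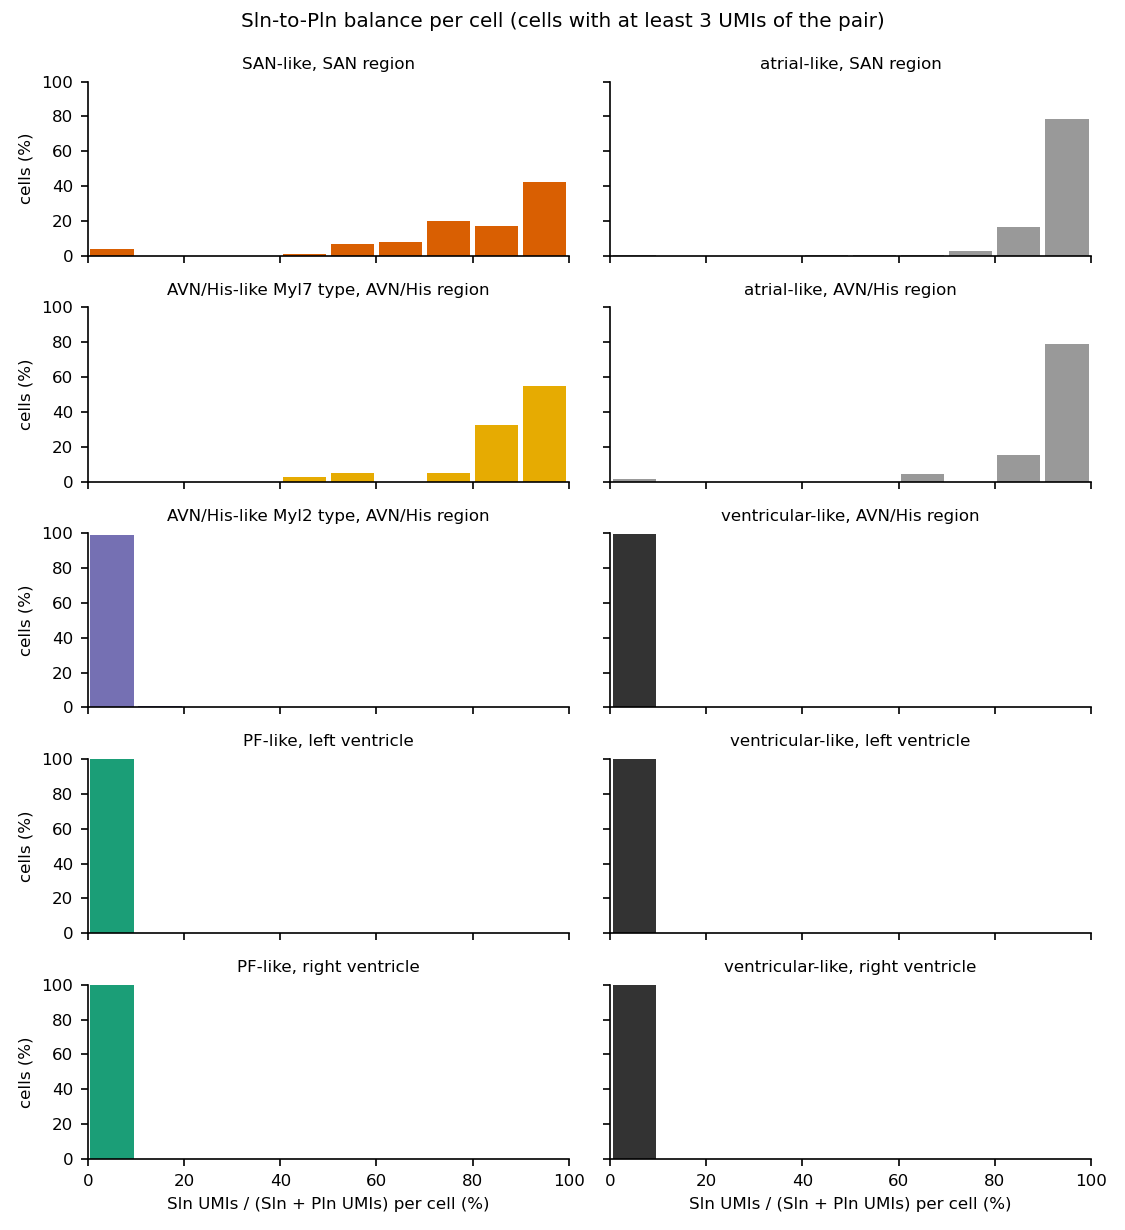
Share of cells (%, vertical axis) by the Sln percentage of their Sln and Pln UMIs (horizontal axis, bins of 10 points), for cells with at least 3 UMIs of the pair. Each conduction class is left of the working myocytes of its library. SAN-like cells spread below 90% (53.8% of cells between 10% and 90%, against 20.8% of atrial-like cells), while all Myl2-expressing classes sit at the left end.

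The 3 comparisons were tested on the summed counts with edgeR's quasi-likelihood test, with the library as a term and Benjamini-Hochberg adjustment over 10372 genes. The sums share cells of 1 library a region, and the fit has 2 residual degrees of freedom. A p-value therefore rests mainly on an estimate of spread that edgeR shares over all genes tested, not on the gene's own sums. It reflects only how these sums vary, which may be technical, and a very small one is no measure of the spread between hearts. Members and lists were chosen with earlier results of these data known, and no p-value is adjusted over the list alone.

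Between nodal-like and atrial-like cells, 1 of the 10 genes passed: Pln was higher by 0.92 on the log2 scale (SE 0.14, edgeR adjusted p = 6.66e-09). Of all genes tested, 9.32% passed, 4.44% as higher and 4.88% as lower. The median log2 difference was 0.15 over the 10 genes and −0.0014 over all genes. The Pln result was that of the SAN region: within the library the fold was 3.0 (2.85 to 3.16) in SAN-like cells and 1.32 (1.11 to 1.56) in the Myl7 type. Without the SAN region the log2 difference was 0.23 (adjusted p = 0.764), without the library term it was 1.01 (adjusted p = 0.0859), and with cells classed one by one from marker UMIs it was −0.28 (adjusted p = 0.203). Over 20 alternatives its adjusted p ran between 1.23e-28 and 0.764. Sln was lower by 0.22 (SE 0.13, adjusted p = 0.370), which did not pass. With both AVN/His-like types in 1 nodal sum, as the comparison had first been laid out, Sln also passed as lower (log2 −1.18, adjusted p = 0.0135), and Pln was higher by 1.85 (adjusted p = 1.10e-05).

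Between PF-like and ventricular-like cells, 4 of the 10 passed, 2 higher and 2 lower, where 21.8% of all genes passed (9.52% higher, 12.3% lower). The median log2 difference was −0.27 over the 10 genes and −0.06 over all genes. The genes that rose were Hrc and Casq2, which act inside the store, and those that fell were Atp2a2 and Pln, the pump and its regulator. Between atrial-like and ventricular-like cells, 3 of the 10 passed, 2 higher and 1 lower, where 7.55% of all genes passed (4.24% higher, 3.31% lower). The median was 0.02 over the 10 genes and −0.01 over all genes. Sln was higher by 7.95 (SE 0.25, edgeR adjusted p = 1.55e-215) and Casq1 by 1.62 (SE 0.21, adjusted p = 2.84e-12), and Pln was lower by 3.71 on that scale (log2 −3.71, SE 0.17, adjusted p = 8.08e-97). Only the AVN/His library held both chambers, with 72 atrial-like cells, so this comparison could not be fitted without it. The joint fit also draws on the nodal-like sums. Directly within that library, without TMM scaling, the log2 differences were 8.05 for Sln, 1.73 for Casq1 and −3.23 for Pln. Without the mixed cluster the fitted Sln difference was 9.31, and the ventricular-like Sln level of the AVN/His library was then about that of its non-myocytes. Scaling without TMM factors moved the 10 genes up by medians of 0.14, 0.31 and 0.18 log2 in the nodal, PF and atrial comparisons. No difference that passed changed direction with it, while Casq2 and S100a1 in the nodal, Ryr2 and Slc8a1 in the PF and Casq2 in the atrial comparison, which had not passed, changed sign.

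**Figure D3:**
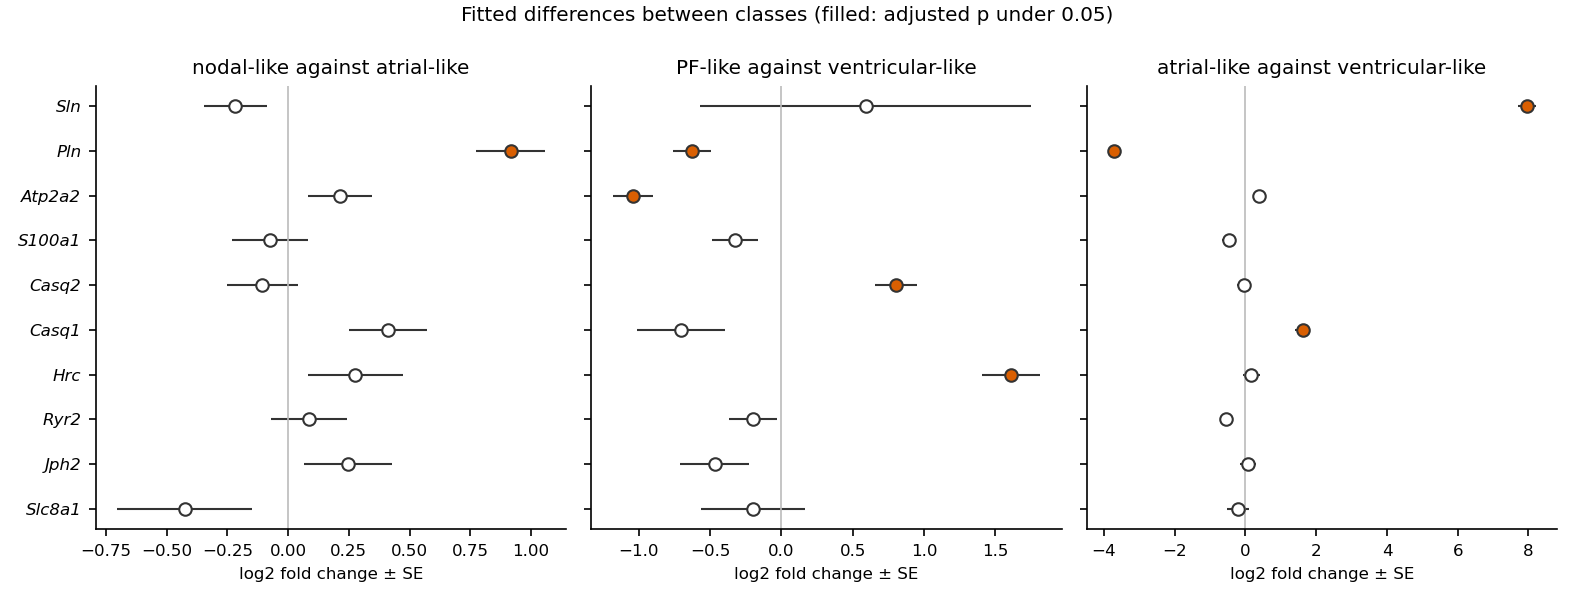
Fitted log2 fold changes of the 10 genes (horizontal axes, different in each panel) with their standard errors in 3 comparisons, the first-named class over the second. Filled points passed an edgeR adjusted p of 0.05. Only Pln is filled for nodal-like cells, Hrc, Casq2, Atp2a2 and Pln for PF-like cells, and Sln, Pln and Casq1 for atrial-like cells.

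Atp2a2 encodes SERCA2, the pump that both regulators bind (chr5:122453513-122502225, GRCm38, minus strand). It had its highest level in SAN-like cells, 34.9 UMIs per 10000 (33.99 to 35.86), against 28.6 in atrial-like cells. The Myl7 type had 26.7 (25.2 to 28.2), against 20.004. The within-library folds of 1.22 (1.19 to 1.25) and 1.34 (1.24 to 1.44) pointed the same way, but the fitted nodal difference of 0.21 (SE 0.13, edgeR adjusted p = 0.396) did not pass. The classes with Myl2 showed the opposite order. The Myl2 type had 8.74 (8.26 to 9.24), against 13.9 in ventricular-like cells, the PF-like cells of the left ventricle 9.96 (8.95 to 11.1), against 15.1, and those of the right ventricle 10.7 (9.26 to 12.4), against 19.7. These 3 conduction classes were the lowest of the 10, and neighbours among them overlapped. PF-like cells differed by −1.04 (SE 0.14, edgeR adjusted p = 3.24e-12), and this call held under all 20 alternatives. Within the libraries, without TMM scaling, the log2 differences were −0.60 on the left and −0.88 on the right. Both were smaller in size than the fitted one.

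Pln in PF-like cells was a weaker result. The fitted difference was −0.63 (SE 0.13, edgeR adjusted p = 2.86e-05). Within the libraries the fold was 0.686 (0.641 to 0.734) on the left and 0.939 (0.866 to 1.02) on the right. On the log2 scale these were −0.54 and −0.09, without TMM scaling, both smaller in size than the fitted difference. The call was lost under 7 of 20 alternatives, with adjusted p up to 0.470, among them the fit without the left ventricle (log2 −0.41, adjusted p = 0.239). S100a1, a calcium sensor known to raise the activity of the pump and the release channel in heart muscle, followed the dissected region. It had 1.35 and 1.56 UMIs per 10000 in SAN-like and atrial-like cells of the SAN region, against 3.24 to 4.72 in the 8 classes of the other libraries. Each region is 1 library, so region and library cannot be told apart. Endothelial-like cells held 0.340 in the SAN region, against 0.594 in the AVN/His region. Fibroblast-like cells held 0.138, against 0.344, and macrophage-like cells 0.661, against 1.02. No fitted S100a1 difference between classes passed, though it passed as lower under 2 of 20 alternatives in PF-like cells and under 3 of 19 in atrial-like against ventricular-like cells. PF-like cells had 4.64 (3.96 to 5.41) in the left ventricle, against 3.71 in ventricular-like cells, and 3.43 (2.62 to 4.40) in the right ventricle, against 4.72.

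Casq2 and Hrc encode proteins of the store itself: cardiac calsequestrin, which binds calcium inside the reticulum, and the histidine-rich calcium-binding protein. Among the named classes both were highest in PF-like cells. Casq2 had 9.46 UMIs per 10000 (8.47 to 10.53) in PF-like cells of the left ventricle, against 4.41 (4.34 to 4.48) in ventricular-like cells, and 10.2 (8.74 to 11.8) in the right ventricle, against 4.64 (4.55 to 4.72). Hrc had 2.51 (2.01 to 3.08), against 0.613, in the left ventricle and 2.58 (1.89 to 3.45), against 0.751, in the right. The 2 PF-like classes overlapped for each gene and stood above all 8 other classes, whose highest levels were 6.08 for Casq2 and 1.23 for Hrc. An unnamed AVN/His-region cluster of 33 cells, described below, had 10.96 Casq2 and 1.05 Hrc. Within the libraries, without TMM scaling, the left and right log2 differences were 2.03 and 1.78 for Hrc and 1.10 and 1.13 for Casq2. In the fit Hrc rose by 1.61 (SE 0.20, edgeR adjusted p = 8.45e-14) and Casq2 by 0.81 (SE 0.15, adjusted p = 7.67e-07). Both calls held under all 20 alternatives, with adjusted p of at most 0.00195 for Hrc and 0.0450 for Casq2.

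The PF-like cells also held Lyz2, one of 8 macrophage markers, at 3.77 UMIs per 10000 on the left and 1.63 on the right, and the Myl2 type held 2.35. The other 7 macrophage markers, C1qa, Cd68 and Csf1r among them, were at 0 in both PF-like classes. Non-myocytes, macrophage-like cells included, held at most 0.162 Casq2 and 0.0451 Hrc UMIs per 10000, far under the PF-like levels.

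Since the 2 store genes moved together in PF-like cells, their promoters are shown, 250 bases before to 50 after the annotated start, from RefSeq (GRCm38.p6); 8 of the 10 genes had such an entry. Capitals mark the matches to short motifs, searched on both strands: TATTTTTA, of the kind that MEF2 factors bind, the E-box CAGCTG, and AGATAA or TGATAA, of the kind that GATA factors bind. They are in 2.72%, 16.3% and 18.6% of all 32851 promoters of this length. Casq2 (chr3:102086165-102086464, plus strand) held TATTTTTA, starting 68 bases before the start, and Hrc (chr7:45335019-45335318, plus strand) held CAGCTG 22 bases before it. None of these motifs was shared by both windows. The promoters of Pln and Casq1 were searched too: CAGCTG was in both, and a GATA-type motif was in that of Pln at 2 places.
Casq2: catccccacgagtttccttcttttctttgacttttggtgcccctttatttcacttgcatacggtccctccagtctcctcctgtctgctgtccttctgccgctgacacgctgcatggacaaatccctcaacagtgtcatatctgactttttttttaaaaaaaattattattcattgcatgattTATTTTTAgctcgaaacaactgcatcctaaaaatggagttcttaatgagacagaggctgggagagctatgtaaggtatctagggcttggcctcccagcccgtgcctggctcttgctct
Hrc: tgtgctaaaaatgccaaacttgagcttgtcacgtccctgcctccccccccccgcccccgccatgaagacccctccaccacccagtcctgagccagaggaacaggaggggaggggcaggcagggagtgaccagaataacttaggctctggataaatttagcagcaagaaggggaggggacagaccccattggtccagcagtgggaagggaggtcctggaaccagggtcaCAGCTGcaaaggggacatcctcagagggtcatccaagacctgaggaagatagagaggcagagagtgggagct

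In nodal cells the store genes showed no single direction. Casq2 had 3.53 (3.24 to 3.84) in SAN-like cells, against 4.62 (4.53 to 4.71) in atrial-like cells, and 5.26 (4.62 to 5.96) in the Myl7 type, against 3.65 (3.26 to 4.06). The within-library folds were 0.764 (0.701 to 0.833) and 1.44 (1.22 to 1.70), and the fitted difference was −0.11 (SE 0.15, edgeR adjusted p = 0.772). This difference did not pass, though Casq2 passed as lower under 3 of 20 alternatives. The Myl2 type had 6.08 (5.68 to 6.51), against 3.95, a fold of 1.54 (1.44 to 1.65). Hrc had 1.16 (0.994 to 1.34) in SAN-like cells, against 1.10, and 1.23 (0.934 to 1.597) in the Myl7 type, against 0.595 (0.447 to 0.776).

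Casq1, the calsequestrin best known from fast skeletal muscle, was highest in 3 named classes of the AVN/His region. The Myl2 type had 6.45 UMIs per 10000 (6.03 to 6.88), against 0.9901 (0.952 to 1.03) in ventricular-like cells, a within-library fold of 6.51 (6.04 to 7.02). The Myl7 type had 5.32 (4.68 to 6.03), against 3.28 (2.92 to 3.68) in atrial-like cells, a fold of 1.62 (1.37 to 1.92). These 3 levels were the highest of the 10 classes, and neighbours among them did not overlap, though the intervals of the 2 AVN/His-like types nearly met. SAN-like cells followed with 1.69 (1.496 to 1.913), against 1.27 (1.22 to 1.32) in atrial-like cells. PF-like cells had 0.394 and 0.337, against 0.420 and 0.627 in the left and right ventricular-like cells. In the Myl2 type, 82.5% of cells had a Casq1 UMI, against 41.8% of ventricular-like cells, at median depths of 11001.5 and 10623 UMIs. The unnamed AVN/His-region cluster of 33 cells, described below, had 0.988 Casq1. The level of Casq1 in non-myocytes was at most 0.162. The Myl2 type was a class of 1 library and was not itself compared in a test. The fitted nodal difference was 0.41 (SE 0.16, edgeR adjusted p = 0.0882), which did not pass, though it passed as higher under 1 of 20 alternatives. At 1.5 times the clustering resolution it changed direction, to −0.74. There the Myl7 type lost its name, and the nodal-like value rests on SAN-like cells alone.

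Ryr2 and Jph2 encode the cardiac ryanodine receptor, through which the store empties, and junctophilin 2, which ties the reticulum to the outer membrane. Ryr2 was highest in SAN-like cells, 4.19 (3.87 to 4.53), against 3.36 (3.29 to 3.44) in atrial-like cells. The Myl7 type had 2.40 (1.98 to 2.89), against 2.27, and the Myl2 type had the lowest level, 1.90 (1.68 to 2.15), against 2.78 (2.72 to 2.84). PF-like cells had 3.21 and 3.60, against 2.66 and 3.78 in the left and right ventricles. Jph2 was also highest in SAN-like cells, 1.79 (1.58 to 2.01), against 1.22 (1.17 to 1.27), and lay between 0.899 and 1.36 in the other classes. The interval of SAN-like Jph2 overlapped that of the Myl7 type. Slc8a1, the sodium-calcium exchanger that carries calcium out of the cell, was the lowest of the 10 genes in the nodal-like and atrial-like classes and lay between 0.216 and 0.394 UMIs per 10000 in all classes. Its intervals overlapped between all neighbours in the order of levels. None of these 3 genes passed in the 3 comparisons, though Ryr2 between atrial-like and ventricular-like cells passed as lower under 2 of 19 alternatives.

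Over the 10 class sums, Pearson correlations of log2(CPM + 1) describe which genes ran together. The sums share libraries and depth, and the values carry no test. Sln and Pln had r = −0.92 and Casq2 and Hrc 0.83. Among 2564 genes, those most like Sln were Mybphl (0.988), Cav1 (0.980), Nr2f1 (0.976), Vsnl1 (0.969) and Myl4 (0.962). Those most like Pln were Smyd2 (0.972), Cox8a (0.962), Myh7 (0.949), Ddc (0.929) and Myl2 (0.926). For Casq1 they were Cnn1 (0.963), Actc1 (0.951), Cdc42ep3 (0.941), Tuba1a (0.939) and Mlip (0.932). Mybphl, Nr2f1, Myl4, Vsnl1 and Myl2 were markers used to name the classes, so their ranks are not independent of how the sums were built.

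Another 29 calcium handling genes with an entry in the gene table were read as a list, and 21 passed the filter. Between nodal-like and atrial-like cells, edgeR passed 0 of 21, with 3 at an unadjusted p under 0.05, beside the 9.32% of all genes that passed in edgeR. DESeq2 passed 0 of the list, where it passed 241 of all 10372 genes. Between PF-like and ventricular-like cells 5 of 21 rose and 1 fell, beside 9.52% and 12.3% of all genes. The median log2 difference of the 21 was 0.37, against −0.06 over all genes. Without TMM factors 8 of the 21 rose and 0 fell, where 2277 of all 10372 genes passed in either direction. The part of the scaling in this change was not tested. Trdn, which encodes triadin, the anchor of calsequestrin at the ryanodine receptor, had 6.87 and 8.03 UMIs per 10000 in PF-like cells of the left and right ventricles, against 3.003 and 3.077 in ventricular-like cells. It rose by 0.97 (edgeR adjusted p = 3.89e-09). Calr, the calcium-binding chaperone calreticulin, had 6.25 and 4.89, against 2.55 and 2.10, and rose by 0.95 (edgeR adjusted p = 5.77e-08). Both calls held under all 20 alternatives.

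The membrane calcium pump gene Atp2b4 had 0.647 and 0.674 UMIs per 10000 in PF-like cells of the left and right ventricles, against 0.0621 and 0.0683 in ventricular-like cells, on 23 and 12 UMIs. It rose by 3.04 (edgeR adjusted p = 2.31e-12). Itpr2, an inositol trisphosphate receptor that releases calcium from the store, had 0.507 and 0.843, against 0.100 and 0.144, on 18 and 15 UMIs, and rose by 2.13 (edgeR adjusted p = 3.63e-07). Ppp1r1a, an inhibitor of protein phosphatase 1, had 2.62 and 1.80, against 0.944 and 0.854, and rose by 1.01 (edgeR adjusted p = 9.89e-06). Fkbp1a, which encodes a small protein that binds ryanodine receptors, had 3.18 and 3.88, against 4.46 and 4.52, and fell by 0.67 on the log2 scale (edgeR adjusted p = 0.000334). Between atrial-like and ventricular-like cells 2 of 21 rose and none fell, beside 4.24% and 3.31% of all genes. Ryr3, another ryanodine receptor, had 0.595 UMIs per 10000 in atrial-like cells of the AVN/His region, against 0.0181 in ventricular-like cells, and rose by 5.27 (edgeR adjusted p = 9.56e-40). Calr rose there by 0.67 (edgeR adjusted p = 0.0115).

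Clusters within a class varied too. Among atrial-like clusters of the SAN region, Sln ran between 46.6 and 102.5 UMIs per 10000 and Pln between 2.21 and 6.34, all below the SAN-like Pln of 11.5. In the ventricles, a ventricular-like cluster led by the cycling genes Cks2, Ube2c and Cenpf had 26.0 Pln UMIs per 10000 on the left and 26.5 on the right, against 38.8 and 35.4 in the cluster led by Aldoa and Eci1. The other clusters led by cycling genes lay between 30.1 and 35.2 on the left and between 31.0 and 33.6 on the right. A small cluster in each zone lacked Atp2a2. It had 0.826 UMIs per 10000 in 78 atrial-like cells of the SAN region, 0.317 in 81 ventricular-like cells of the AVN/His region, and 0.192 and 0.457 in 19 and 111 ventricular-like cells of the left and right ventricles. Casq2 and Ryr2 were low in these cells as well, while Sln reached 102.5 in the atrial-like cluster and Pln 52.1 to 55.9 in the ventricular-like ones. Their median depth was 5125 to 6199 UMIs, below that of their classes. Without them Atp2a2 was 29.2 instead of 28.6 in atrial-like cells of the SAN region, and 20.4 instead of 19.7 in ventricular-like cells of the right ventricle.

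**Figure D4:**
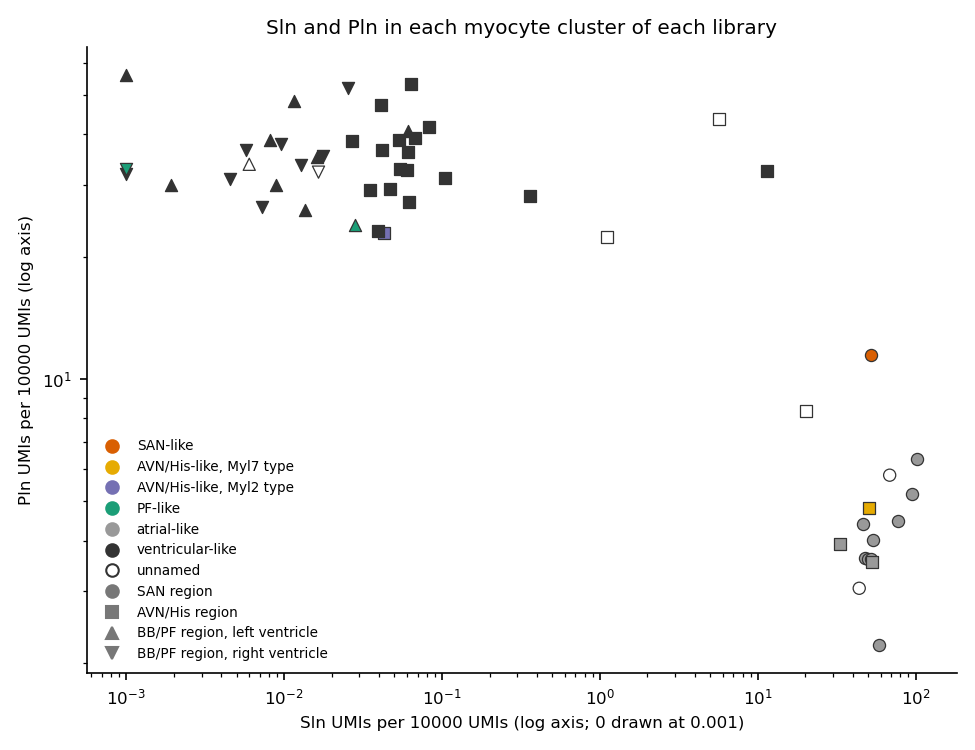
Sln (horizontal axis) against Pln (vertical axis) in each myocyte cluster of each library, both as UMIs per 10000 UMIs on log axes, with color for the class and shape for the library. Clusters with no Sln UMI are drawn at the left edge. SAN-like cells (52.2 Sln, 11.5 Pln) lie above all atrial-like clusters in Pln, and a few clusters of the AVN/His region lie between the chambers.

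In the AVN/His region 4 clusters had a Sln share between 4.74% and 70.8%, while the others lay at 1.26% or less, or at 89.5% or more. An unnamed cluster of 33 Myl7-type cells, which carried 4 of 7 AVN/His markers with none leading, had 20.2 Sln and 8.33 Pln UMIs per 10000, and a Sln share of 70.8%. The mixed cluster of 27 cells described above had 11.5 Sln and 32.4 Pln. An unnamed cluster of 68 Myl2-type cells, led by Sln, Eln, Myl7 and Rspo3, had 5.68 Sln and 43.6 Pln, and one of 16 Myl2-type cells, led by Col3a1 and Col1a1, had 1.11 Sln and 22.3 Pln. Doublets had not been removed by a caller, and cells that hold both an atrial and a ventricular myocyte cannot be told apart here from single cells with both transcripts.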

How the data were processed

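The deposited files hold counts of UMIs per gene and cell, which the authors made with Cell Ranger at default settings against mm10; no normalization was applied, and the Cell Ranger version and annotation release are not given in the sources used here. Cells with at least 500 genes and 1000 UMIs were kept (408, 356, 352 and 654 barcodes fell under these limits). Myocytes (at least 100 UMIs of 10 cardiomyocyte genes per 10000) were clustered by region with scanpy 1.11.5 and leidenalg 0.10.2 on 2000 variable genes, 10 principal components and 30 neighbours, with UMI number and the ribosomal share regressed out and the 10 genes and the calcium handling list left out. AVN/His myocytes were first split by Myl7 and Myl2. The resolution was raised from 0.8 until a cluster earned the conduction name, which took 1.6 in the Myl2 type and 0.8 in the rest. Myocytes were dropped when hemoglobin made up more than 1% of UMIs or when 3 endothelial markers were detected (86, 48, 77 and 90), no doublet caller was applied, and 257, 323, 292 and 211 cells lay near the myocyte limit. A cluster was named when at least 50% of its markers, and at least 3, passed a log fold change of 0.25 and a UMI in 10% of cells. For a conduction name, 1 marker also had to be among the 10 leading genes, which was not asked of the atrial-like and ventricular-like names. A cluster with more leading markers of another type stayed unnamed. Clusters without a name (438, 117, 519 and 188 cells) entered no class.

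Counts were summed by library and class (at least 20 cells) and tested with edgeR 4.0.16 (TMM, filterByExpr, glmQLFit, glmQLFTest; R 4.3.3, limma 3.58.1) with a library term. The comparisons had been laid out with 1 AVN/His-like class; clusters fell into a Myl7 and a Myl2 type, which were kept apart, and the fit with both in 1 sum is given beside it. On simulated counts the test recovered 89.5%, 56.1% and 87.0% of 4-fold changes in the nodal, PF and atrial comparisons and 38.5%, 13.7% and 29.6% of 2-fold changes. The changed genes were drawn from all that had passed the filter, with the same dispersion for every gene and no library effect. These shares are thus for genes of any level and not for the 10 genes. Alternatives were no library term, DESeq2 1.42.0, no TMM, no filter, each library left out, thinning to 1500 UMIs, classes by marker UMIs, 1.5 times the resolution, 20 components, no regression, hemoglobin- and endothelial-marked cells kept, Scrublet scores of at least 0.2 left out, and at least 1000 genes; 4 more were added after seeing the data. The 10 genes, the lists and the named genes (all 10, plus listed calcium handling genes that passed, at most 5 each way, and the 5 genes most like Sln, Pln and Casq1) were chosen with earlier results of these data known. Figures were drawn with matplotlib 3.10.9.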

Additional observations from a re-analysis of the deposited data

Results flagged for a closer look

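For 4 gene and class pairs the fold over the working myocytes of the same library pointed opposite ways in 2 regions, with counting intervals that leave out 1 in both; the difference between the regions was not tested. Sln was 0.839 times the atrial-like level in SAN-like cells and 1.07 times it in the Myl7 type of the AVN/His region. Casq2 was 0.764 times the atrial-like level in SAN-like cells and 1.44 times it in the Myl7 type. S100a1 was 0.865 times the atrial-like level in SAN-like cells and 1.29 times it in the Myl7 type. In PF-like cells S100a1 was 1.25 times the ventricular-like level in the left ventricle and 0.727 times it in the right ventricle. Each region is 1 library, so region and library cannot be told apart.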

How the results depend on the processing

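Of the values of named genes recomputed under the alternatives, 662 of 747 kept their direction and their side of the threshold, 45 that passed neither way changed sign, 16 passed only under the alternative, 21 no longer passed and 3 that passed in 1 of the 2 fits changed direction. The count of the 10 genes that passed between nodal-like and atrial-like cells was 1, and became 0 without the library term and with classes by marker UMIs, 2 without TMM factors, 2 without cells of Scrublet scores of at least 0.2, 2 with both AVN/His-like types in 1 sum, 2 with the unnamed 33-cell cluster added and 4 at 1.5 times the resolution; leaving out 1 library at a time gave 0 to 2, with 0 without the SAN region and 2 without the AVN/His region. Calls over all genes moved too: they were 967 at first, and in the same order of alternatives 421, 344, 968, 1446, 475, 879 and 1322, then 180 and 1159 without those regions. The count between atrial-like and ventricular-like cells was 3 (783 over all genes), and 5 (1215) without the Scrublet-marked cells. Over all alternatives, calls over all genes ran between 155 and 1446 in the nodal, 565 and 2672 in the PF and 152 and 2081 in the atrial comparison, the lowest with thinned cells, which left 5484 genes to test. The nodal Sln share of 86.7% was 61.3% with both AVN/His-like types and 79.7% at 1.5 times the resolution, where it rests on 1 library; the atrial share of 93.5% was 82.9% with classes by marker UMIs and 91.5% without the Scrublet-marked cells. Pln between nodal-like and atrial-like cells turned to −0.28 with classes by marker UMIs, Casq1 in that comparison to −0.74 at 1.5 times the resolution, and Casq1 between PF-like and ventricular-like cells to 0.80 without the Scrublet-marked cells. The cause of these changes was not tested, apart from the loss of a class: at 1.5 times the resolution no Myl7-type cluster kept its AVN/His-like name, without the Scrublet-marked cells it held 11 cells, and with 20 components the right PF-like class held 16, all of which gave no sum.

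The labels give no replicate numbers to pair; the library term, which compares classes within a library, takes that place. The small classes (20 and 39 PF-like cells, 40 cells of the Myl7 type) limit the precision. On simulated counts, 2-fold changes in PF-like cells were mostly missed (13.7% recovered) for genes drawn from all that had passed the filter. Genes named beside the 10 lost their call under some alternatives: Calr between atrial-like and ventricular-like cells under 5 of 19, and Fkbp1a, Ppp1r1a and Itpr2 in PF-like cells under 4, 2 and 1 of 20.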
